A study of Mus musculus with 15 samples.

Results

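The comparison described here is that of CreER embryonic stem cells (ESCs) exposed to 4-hydroxytamoxifen (4-OHT) for 18 h with the same cells before exposure (0 h), across all genes. Its members were chosen by their time label, as 2 libraries at 18 h and 2 at 0 h, which are 4 of the 15 libraries of the series. The series followed mouse ESCs by RNA sequencing after OCT4 was removed, in CreER cells by deletion of its gene over 36 h and in O4AID cells by degradation of the protein over 24 h. CreER cells were labelled Oct4Fl/-, of a mixed 129SV and C57BL/6 background. The labels give N2B27 with 2i and LIF as the medium of all samples, whereas the study's methods and legends describe a change to serum with LIF as 4-OHT was added for other assays of Oct4Fl/- cells, and whether this was done for the sequenced cells is not given in the sources used here. They carried 1 floxed *Pou5f1* allele opposite a null allele, and a Cre recombinase fused to an oestrogen receptor domain under the broadly active CAG promoter, which 4-OHT (500 nM) activates. The 0 h cells carried the same null allele, floxed allele and CreER and had no 4-OHT, and the labels name no vehicle. Exposure to 4-OHT, activity of the recombinase, loss of OCT4 and any change of medium made with 4-OHT therefore cannot be told apart here. O4AID cells (ZHBT line, 129SV) lacked endogenous *Pou5f1* and held a TetOFF Oct4 transgene, kept silent by doxycycline, with an AID-tagged Oct4 and Tir1 under CAG promoters, and received IAA at 500 µM. They gave 1 library a time and enter no test. All 4 libraries came from 1 line, and nothing states that replicates were separate cultures, so p-values measure the spread between these samples, which may be technical.

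OCT4, encoded by *Pou5f1*, is a POU-domain transcription factor that binds an octamer motif, often together with SOX2, at genes active in the inner cell mass and in ESCs. It is known as a factor without which the pluripotent lineage is not kept, and cells that lose it take on features of trophectoderm, the outer epithelium of the blastocyst that forms placenta. Naive ESCs are otherwise maintained by a network of factors including NANOG, KLF4, ESRRB, TFCP2L1 and TBX3.

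The 4 libraries held 24.5 to 29.2 M counted reads, and 18969 of 48709 genes passed the filter on low counts and were tested. Levels are given as CPM, the counts of a gene relative to the size of its library, after TMM scaling, which corrects that size for composition, and differences as log2 fold changes of 18 h minus 0 h. A gene was called where its p-value from the quasi-likelihood test of edgeR, adjusted by the Benjamini-Hochberg method over all genes tested, was under 0.05. Mitochondrially encoded genes took 8.54% and 9.32% of reads at 0 h against 10.94% and 12.18% at 18 h, without overlap, and their part in any other result was not tested. The cells held ESC markers at a summed level of 2109 to 2216 CPM. The summed level of 5 fibroblast feeder markers was 8.32 to 9.66 CPM, that of 4 primitive endoderm markers 4.40 to 6.23 CPM, that of 3 mesoderm markers 1.72 to 2.30 CPM and that of 2 neural markers 10.5 to 14.6 CPM. None of these markers was at 0 in all 4 libraries.

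*Pou5f1* (ENSMUSG00000024406) lies on the plus strand at chr17:35506018-35510772 of GRCm38. It stood at 330.0 and 324 CPM at 0 h and at 168 and 169 CPM at 18 h. The groups did not overlap and the replicates of each group were close together, with 327 ± 3.91 against 168 ± 0.556 CPM (SD, n = 2). The transcript level fell to 51.4% of that at 0 h, a log2 change of -0.96 (SE 0.0437, adjusted p = 1.89e-14). *Pou5f1* was also lower at 18 h than at 12 h by edgeR (log2 -0.45, adjusted p = 6.31e-07). Because the counts sum over the whole gene, transcript from the floxed, recombined and null alleles is counted together. A gene on the other strand inside *Pou5f1*, Gm19553, did not pass the filter.

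The gene with the smallest adjusted p-value of all was a neighbour of *Pou5f1*. *Cchcr1* (ENSMUSG00000040312), which encodes a coiled-coil protein, lies on the same strand at chr17:35517100-35531015 and starts 6328 bases past the end of *Pou5f1*. It stood at 18.97 and 22.0 CPM at 0 h and at 112 and 114 CPM at 18 h. Both 18 h libraries were far above both 0 h libraries, a 5.50-fold rise (log2 2.46, SE 0.0593, adjusted p = 3.43e-21 by edgeR). *Psors1c2*, the gene after it on the same strand at chr17:35533201-35534647, stood at 6.94 and 5.65 CPM and then at 10.8 and 9.86 CPM, again without overlap (log2 0.72, adjusted p = 7.70e-05). Between *Pou5f1* and *Cchcr1* lies *Tcf19*, on the minus strand at chr17:35512734-35516824. It stood at 10.5 and 9.40 CPM at 0 h and at 10.3 and 12.4 CPM at 18 h, and the groups overlapped (log2 0.20, SE 0.110, adjusted p = 0.303). Thus 2 plus-strand genes downstream rose while the minus-strand gene between them and *Pou5f1* was not called. Of 13 genes within 100 kb of *Pou5f1*, 10 were tested, and the 3 called were *Pou5f1*, *Cchcr1* and *Psors1c2*. In O4AID cells, 1 library at 24 h of auxin gave *Cchcr1* at 23.4 CPM against 26.0 CPM in 1 library at 0 h. The same 2 libraries gave *Tcf19* at 22.6 against 11.9 CPM and *Psors1c2* at 0.249 against 0.320 CPM. These values come from another line and have no replicate check. The cause of the rises beside *Pou5f1* was not tested.

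**Figure D1:**
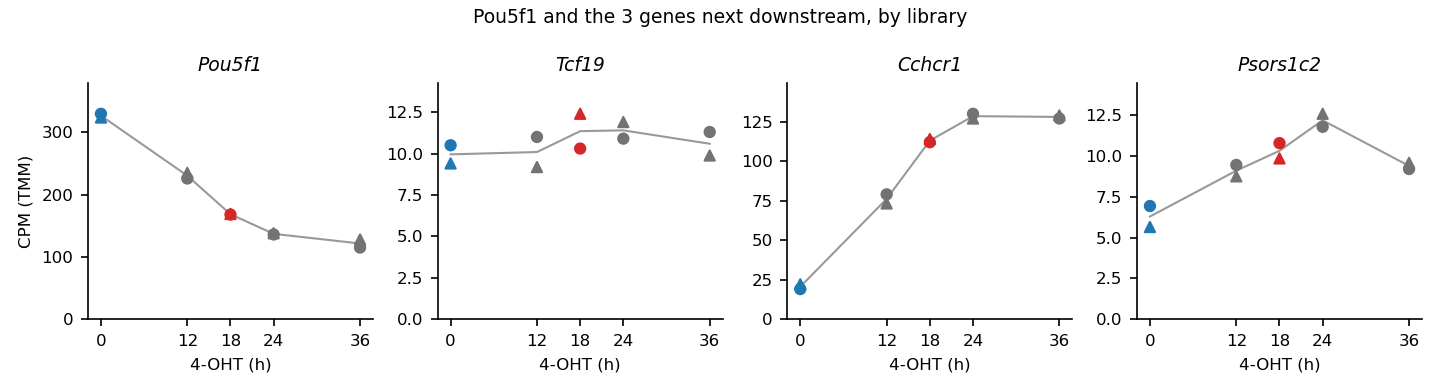
CPM (TMM-scaled, linear axes from 0) of *Pou5f1* and the 3 genes next downstream against hours of 4-OHT, with circles for replicate 1, triangles for replicate 2, blue for 0 h, red for 18 h, grey for other times and a line through the means (n = 2 a time). *Pou5f1* falls as *Cchcr1* climbs from 18.97 and 22.0 to 112 and 114 CPM at 18 h, and *Tcf19* shows overlapping groups.

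Across all genes the comparison called 1616 of 18969 (8.52%), of which 897 (4.73%) were higher and 719 (3.79%) lower at 18 h. The changes were mostly small. The median called rise was 1.25-fold (log2 0.33, with 10% to 90% of the calls between 0.19 and 0.71), and the median called fall left 0.850 of the 0 h level (log2 -0.23, between -0.52 and -0.15). Only 204 calls (1.08%) reached 1.5-fold, 146 of them higher (0.770%) and 58 lower (0.306%). At 2-fold 38 were left, 26 of them higher. Of protein-coding genes, 1485 of 14641 (10.1%) were called, whereas 14 of 553 lincRNA genes (2.53%) and 75 of 1506 processed pseudogenes (4.98%) were. Pseudogene reads may come from their near-identical parent genes, so those calls are uncertain. In all 1616 calls both 18 h libraries lay beyond both 0 h libraries, as they did for 50.5% of all genes tested. The number called rested on each library. It was 582 without 18 h replicate 1, 814 without 18 h replicate 2 and 739 without 0 h replicate 2, whereas it was 2006 without 0 h replicate 1. Of the 1616 calls, 389 were called in each of these 4 fits, and no call changed sign in any of them.

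**Figure D2:**
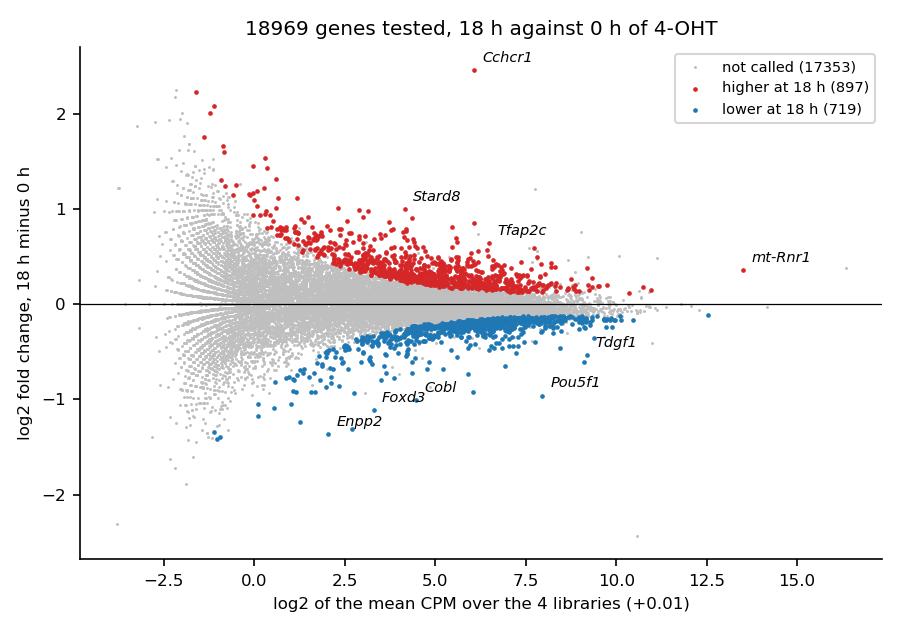
Log2 fold change (18 h minus 0 h) of the 18969 genes tested against the log2 of their mean CPM over the 4 libraries, with 897 genes called higher in red, 719 called lower in blue and the rest in grey. *Cchcr1* is at 2.46, *Pou5f1* is at -0.96, and most called genes lie within 1 log2 unit of 0.

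The 10 largest called rises and 10 largest called falls were taken among genes with a mean of at least 50 counts. Both 18 h libraries also had to lie beyond both 0 h libraries, which held for all calls. Most of the 38 calls of at least 2-fold had fewer counts and were left out. The genes taken included *Pou5f1* among the falls and *Cchcr1* among the rises. After *Cchcr1*, the rises were of 1.87- to 2.17-fold. *Gcm1*, a transcription factor of placental trophoblast, stood at 4.89 and 5.14 CPM at 0 h and at 9.74 and 10.2 CPM at 18 h (log2 0.99, SE 0.109, adjusted p = 6.41e-07). *Dlx3*, a homeobox gene of placenta and skin, stood at 1.85 and 1.56 CPM and then at 2.96 and 3.34 CPM (log2 0.90, SE 0.187, adjusted p = 0.00221). Both transcription factors rose from low levels. The enzymes *Extl1* (log2 0.99) and *Hs3st3b1* (log2 0.91), which act in heparan sulphate synthesis, also rose. *Hs3st3b1* stood at 15.0 and 13.8 CPM and then at 27.2 and 26.7 CPM (adjusted p = 1.10e-08). *Stard8*, a GTPase-activating protein, rose from 12.7 and 11.2 to 25.2 and 22.5 CPM (log2 1.00, adjusted p = 1.24e-08). The other rises were those of *Trim47*, a TRIM-family gene (log2 1.01), *Rab3il1*, a Rab exchange factor (0.92), the membrane protease gene *Tmprss2* (0.92) and 6330403L08Rik (1.12). The last is annotated as antisense to another gene, and the strand setting of the counting is not given in the sources used here, so its reads and those of its partner cannot be told apart.

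The largest called fall among genes with a mean of at least 50 counts was that of *Enpp2*, which encodes the secreted enzyme autotaxin. It stood at 5.09 and 6.73 CPM at 0 h and at 2.30 and 2.33 CPM at 18 h (log2 -1.36, SE 0.165, adjusted p = 2.58e-06). *Nlrc4*, known from the inflammasome, fell from 9.07 and 9.27 to 3.66 and 3.73 CPM (log2 -1.31, adjusted p = 1.12e-07). *Foxd3*, a forkhead factor of the epiblast, fell from 14.2 and 12.7 to 5.84 and 6.55 CPM (log2 -1.11, adjusted p = 1.06e-07). The log2 changes of these 3 genes were below that of *Pou5f1*, a difference that was not tested. *Cobl*, an actin nucleator, fell from 29.7 and 29.9 to 15.5 and 14.1 CPM (log2 -1.01, adjusted p = 5.67e-10). Lower levels were also called for the transglutaminase gene *Tgm3* (log2 -1.23), the chloride channel gene *Cftr* (-1.04), the exchange factor genes *Mcf2* (-0.93) and *Rasgrp1* (-0.92) and the noncoding RNA *Platr8* (-0.92). Of these 20 genes, 17 were called on leaving out each library. *Dlx3* was not called without 0 h replicate 2 (adjusted p = 0.0604), *Cftr* not without 18 h replicate 1 (0.0533), and *Platr8* not without 18 h replicate 1 (0.159) or 0 h replicate 2 (0.0546).

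**Figure D3:**
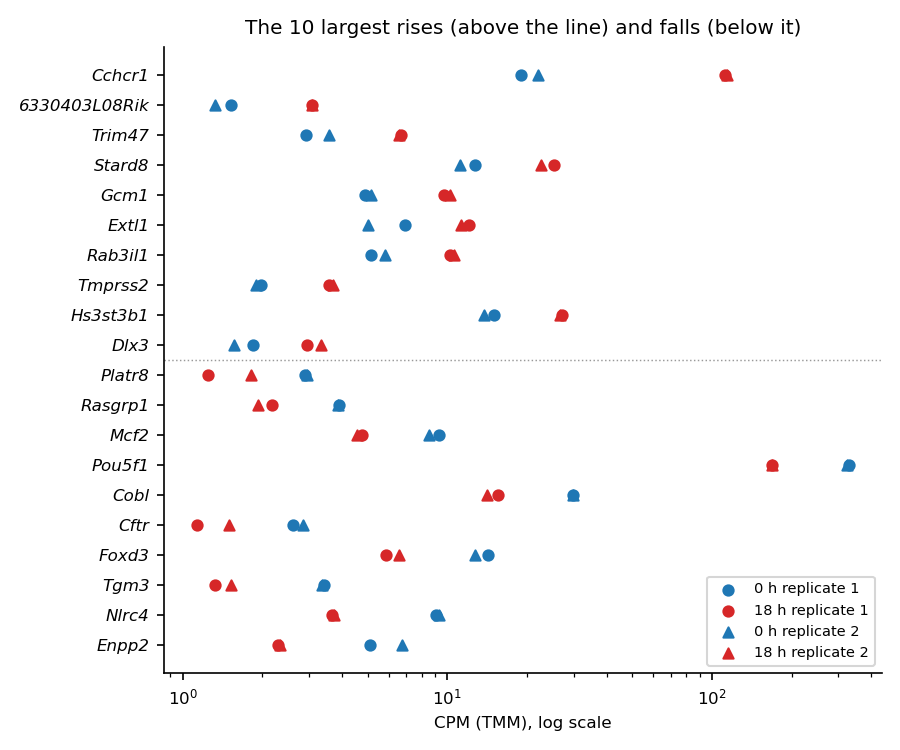
CPM on a log axis of the 10 largest called rises (above the dotted line) and 10 largest called falls (below it), with blue for 0 h, red for 18 h, circles for replicate 1 and triangles for replicate 2. The 18 h points lie to the right of both 0 h points for each rise and to the left for each fall, as the choice of genes required. The widest gap is that of *Cchcr1*.

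Naive pluripotency factors moved in both directions. Of 16 tested, 3 rose and 4 fell (43.8% called), and their median log2 change was -0.033 against 0.0053 over all genes tested. Counts in this list and the later ones stand beside a share of 8.52% called over all genes tested and of 10.1% over protein-coding genes. Neither share is matched to the level of the listed genes. The orphan nuclear receptor *Nr0b1* fell most, from 25.4 and 25.8 to 15.9 and 15.0 CPM (log2 -0.73, SE 0.0807, adjusted p = 7.19e-07). The zinc finger gene *Zfp42*, a marker of naive ESCs known as Rex1, stood at 327 and 328 CPM and then at 281 and 278 CPM (log2 -0.23, adjusted p = 3.92e-04). The homeobox gene *Gbx2* (log2 -0.41) and the nuclear receptor gene *Nr5a2* (-0.20) were the other falls. Upward calls were those of *Tbx3* (log2 0.28), *Esrrb* (0.22) and *Tfcp2l1* (0.22). *Nanog* stood at 578 and 572 CPM at 0 h and at 574 and 576 CPM at 18 h (log2 0.00, SE 0.0374, adjusted p = 1.000 by edgeR). *Sox2* stood at 277 and 267 CPM and then at 269.8 and 261 CPM (log2 -0.03, SE 0.0424), and *Klf4* at 55.0 and 53.3 CPM and then at 58.1 and 54.0 CPM (log2 0.05, SE 0.0545), with overlapping groups for each of these 3 genes. Without 18 h replicate 1, none of the 3 rises was called (adjusted p = 0.103 to 0.261), and *Tbx3* (0.151) and *Esrrb* (0.117) were also lost without 0 h replicate 2. *Gbx2* and *Nr5a2* were lost without 18 h replicate 2 (0.264 and 0.186) and without 0 h replicate 2 (0.103 and 0.184), so *Nr0b1* and *Zfp42* were the calls of this list that each such fit made.

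ESC-restricted effectors are genes that are active in ESCs without being core network factors. Of 16 tested 9 fell and 0 rose, with a median log2 change of -0.17 and 15 members below 0. *Tdgf1*, which encodes the Nodal co-receptor Cripto, stood at 656 and 735 CPM and then at 466 and 494 CPM (log2 -0.54, SE 0.0456, adjusted p = 1.10e-08). *Fgf4*, the growth factor gene expressed by ESCs, stood at 135 and 134 CPM and then at 98.2 and 96.8 CPM (log2 -0.46, adjusted p = 4.82e-08). Neither overlapped between groups, as held for all calls. *Jam2*, a junctional adhesion molecule (log2 -0.43), *Gdf3*, a TGF-beta family ligand (-0.34), and *Dppa3*, known as Stella (-0.28), also fell. *Dppa3* was lost on leaving out any 1 library (adjusted p = 0.0589 to 0.148), and the count of falls was 5 without 18 h replicate 1 and 5 without 18 h replicate 2.

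Promoters of called genes were searched for the octamer to which OCT4 and other POU factors bind, in windows of 250 bases before to 50 bases after the start from RefSeq (GRCm38.p6), which 12035 genes tested had. The letters ATGCAAAT, or ATTTGCAT on the other strand, stood in 200 of these promoters (1.66%). They stood in 14 of 487 promoters of genes called lower (2.87%) and in 13 of 669 of genes called higher (1.94%). Most promoters of either set therefore did not hold these letters, which says nothing of binding elsewhere. Those of 3 genes are printed, with the octamer in capitals and each 5′ to 3′ in the direction of its gene, because they belong to a naive marker that fell, to a large rise and to a gene with 2 octamers. The last, *Pim2*, a kinase gene known as a STAT3 target, was chosen after its values were seen. It stood at 45.5 and 46.4 CPM and then at 30.4 and 27.0 CPM (log2 -0.68, SE 0.0650, adjusted p = 6.77e-08).
Zfp42 (chr8:43306960-43307259, minus strand): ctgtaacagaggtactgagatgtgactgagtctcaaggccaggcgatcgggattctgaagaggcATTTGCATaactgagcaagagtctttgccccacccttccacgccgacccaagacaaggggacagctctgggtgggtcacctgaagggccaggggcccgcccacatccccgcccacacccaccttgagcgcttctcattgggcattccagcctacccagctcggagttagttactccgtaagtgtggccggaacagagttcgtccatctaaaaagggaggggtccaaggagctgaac
Pim2 (chrX:7878056-7878355, plus strand): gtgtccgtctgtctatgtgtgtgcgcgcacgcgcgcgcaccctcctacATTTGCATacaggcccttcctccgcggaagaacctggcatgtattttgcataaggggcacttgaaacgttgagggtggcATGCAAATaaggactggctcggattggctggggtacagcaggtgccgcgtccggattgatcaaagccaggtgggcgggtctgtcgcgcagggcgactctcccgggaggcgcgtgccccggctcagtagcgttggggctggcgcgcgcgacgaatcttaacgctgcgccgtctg
Hs3st3b1 (chr11:63922235-63922534, minus strand): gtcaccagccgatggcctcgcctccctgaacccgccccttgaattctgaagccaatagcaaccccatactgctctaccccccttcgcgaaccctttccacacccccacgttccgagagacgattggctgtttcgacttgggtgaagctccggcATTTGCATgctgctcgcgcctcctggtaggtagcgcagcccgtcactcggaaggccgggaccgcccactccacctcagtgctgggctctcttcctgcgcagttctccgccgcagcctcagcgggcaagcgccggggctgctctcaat
A window with an octamer was thus seen both beside a fall of 0.23 in *Zfp42* and beside a rise of 0.91 in *Hs3st3b1* on the log2 scale. The letters GCCNNNGGC, which pair the short sequences that TFAP2 factors bind, stood in 3412 of 12035 promoters (28.4%), in 235 of 669 of genes called higher (35.1%) and in 134 of 487 of genes called lower (27.5%). The median share of G and C in these windows was 63.3% for genes called higher, 60.3% for genes called lower and 60.3% for all. Its part in the share of promoters with GCCNNNGGC was not tested.

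Of 12 trophectoderm transcription factors tested, 6 rose and 0 fell, with a median log2 change of 0.43 and 11 members above 0. *Tfap2c*, an AP-2 factor of trophoblast and germ line, rose from 71.1 and 67.4 to 114 and 103 CPM (log2 0.65, SE 0.0556, adjusted p = 2.05e-08). *Hand1*, which is needed for trophoblast giant cells, rose from 10.6 and 8.15 to 16.988 and 17.003 CPM (log2 0.87, adjusted p = 4.28e-07). *Eomes*, a T-box factor of early trophoblast, rose from 14.3 and 11.3 to 21.7 and 21.3 CPM (log2 0.76, adjusted p = 1.21e-06). For none of these 3 genes did the groups overlap, as held for all calls. *Gcm1*, described above, *Gata2* (log2 0.69) and *Tead4* (0.32) were the other rises. *Tead4* was not called without 18 h replicate 1 (adjusted p = 0.298) or 0 h replicate 2 (0.212). *Cdx2*, a defining factor of trophectoderm, stood at 2.81 and 2.67 CPM and then at 4.29 and 3.14 CPM (log2 0.43, SE 0.175, adjusted p = 0.138), and *Gata3* at 2.25 and 2.33 CPM and then at 3.04 and 2.75 CPM (log2 0.33, SE 0.189, adjusted p = 0.316). In both the 18 h libraries were above the 0 h libraries, by a margin that did not pass the test. Both 18 h libraries lay beyond both 0 h libraries for 50.5% of all genes tested, so this order alone says little.

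Of 16 genes of the trophectoderm epithelium tested, 9 rose and 0 fell, with a median log2 change of 0.22. The water channel gene *Aqp3* rose from 43.7 and 39.0 to 59.0 and 57.5 CPM (log2 0.50, adjusted p = 3.12e-06). The tight junction gene *Cldn4* rose from 89.6 and 91.2 to 127 and 115 CPM (log2 0.42, adjusted p = 2.75e-06), and the desmosome gene *Dsp* from 103 and 107 to 135 and 129.9 CPM (log2 0.33, adjusted p = 6.33e-06). The groups were apart for all 3, as for all calls. The endocytic adaptor gene *Dab2* (log2 0.39) and the keratin gene *Krt7* (0.31) were called as well. *Dab2* was lost without 18 h replicate 1 (adjusted p = 0.0656) or 0 h replicate 2 (0.168), and *Krt7* on leaving out any 1 library (0.0503 to 0.381). The count of rises was 3 without 18 h replicate 1, 5 without 18 h replicate 2 and 5 without 0 h replicate 2. The summed level of 6 trophectoderm markers was 265 and 257 CPM at 0 h and 322 and 306 CPM at 18 h. Of these, 4 were called higher (*Hand1*, *Krt7*, *Krt8* and *Krt18*), and *Cdx2* and *Gata3* were not called. The keratin genes *Krt8* and *Krt18* made up most of the sum. In a bulk sample, more cells of a type and more RNA per cell cannot be told apart.

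**Figure D4:**
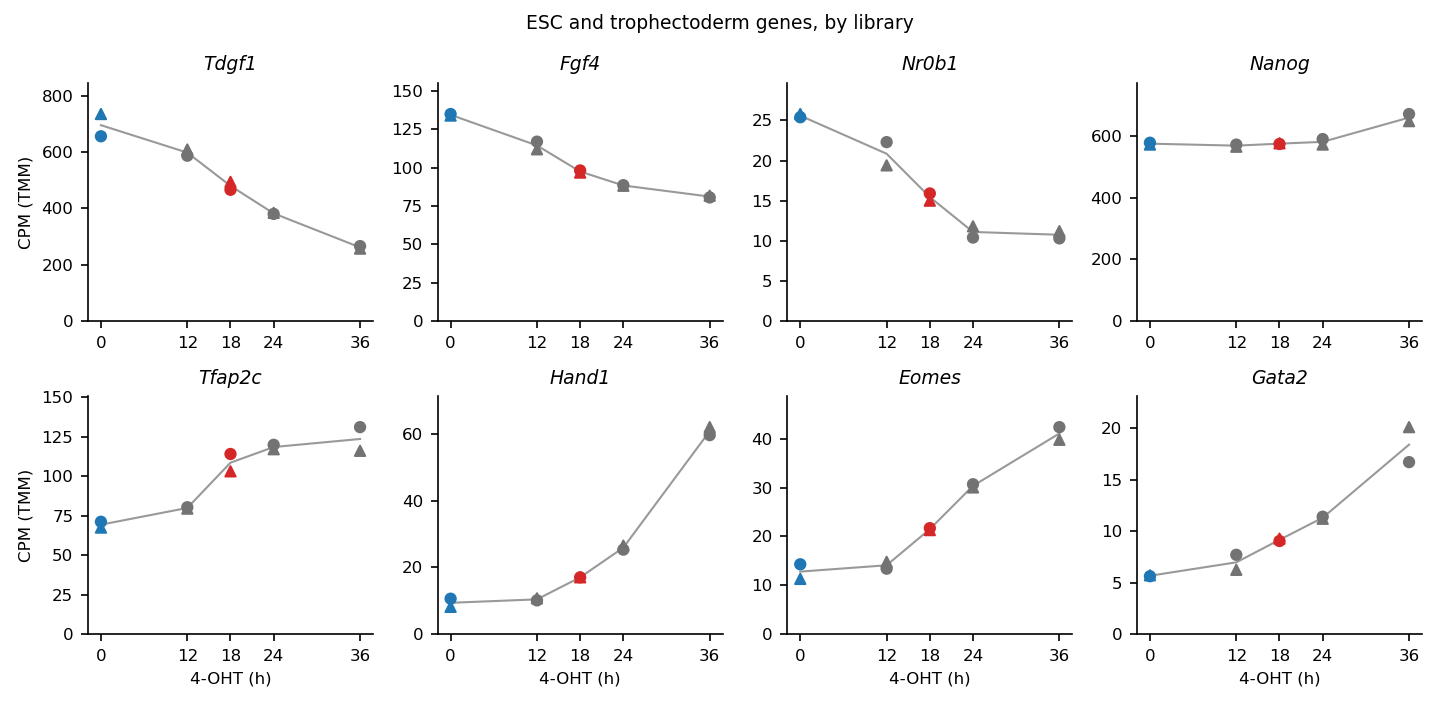
CPM (TMM-scaled, linear axes from 0) of 4 ESC genes (top) and 4 trophectoderm factors (bottom) against hours of 4-OHT, with circles for replicate 1, triangles for replicate 2, blue for 0 h, red for 18 h, grey for other times and a line through the means (n = 2 a time). *Tdgf1*, *Fgf4* and *Nr0b1* lie lower at 18 h than at 0 h, *Nanog* stands at 574 and 576 CPM at 18 h, and the trophectoderm factors lie higher.

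Of 11 genes tested of the formative and primed epiblast, the states that follow naive pluripotency, 6 fell and 0 rose. Members below 0 numbered 7 and those above 0 numbered 4, and the median log2 change was -0.23. Besides *Foxd3*, the zinc finger gene *Zic2* stood at 19.4 and 17.3 CPM and then at 11.4 and 10.1 CPM (log2 -0.77, adjusted p = 1.73e-06). *Lef1*, a transcription factor that responds to Wnt, fell by 0.56 on the log2 scale, the homeobox gene *Otx2* by 0.32 and the DNA methyltransferase gene *Dnmt3a* by 0.23. *Otx2* was narrowly lost without 18 h replicate 1 (adjusted p = 0.0523), and *Dnmt3a* without 0 h replicate 2 (0.0541).

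Of 12 primitive endoderm genes tested 3 rose and 1 fell (33.3% called, against 8.52% of all genes tested). The members that rose were extracellular matrix genes that other cells also express. *Col4a2* rose from 56.9 and 55.4 to 77.1 and 73.0 CPM (log2 0.42, adjusted p = 1.75e-06), *Col4a1* by 0.41 and *Sparc* by 0.21 on the log2 scale, whereas the endocytic receptor gene *Cubn* fell by 0.91 from 2.17 and 3.25 to 1.71 and 1.22 CPM. Without 0 h replicate 2, *Sparc* (adjusted p = 0.0843) and *Cubn* (0.276) were not called. *Sparc* was also lost without 18 h replicate 1 (0.0807) and *Cubn* without 18 h replicate 2 (0.179). Of 6 neural genes tested, *Tubb3* rose (log2 0.28, adjusted p = 1.04e-04), and *Pax6* (-0.60, adjusted p = 4.50e-04) and *Olig2* (-0.34) fell, of which *Olig2* was lost without any one of 3 libraries (adjusted p = 0.100 without 18 h replicate 1, 0.217 without 18 h replicate 2 and 0.149 without 0 h replicate 2). By edgeR, 0 of 5 mesoderm and gastrulation genes and 0 of 6 fibroblast feeder markers were called. Among 11 two-cell-like genes and 13 methylation-sensitive germline genes the count was also 0. Of all genes tested 8.52% were called, and lists this short would hold few calls at that share. An edgeR p under 0.05 before adjustment was found for 1, 2, 3 and 2 members of these lists, beside 4181 of all 18969 genes tested. DESeq2 called 0 of the 1, 2, 10 and 9 members to which it gave an adjusted p. With RLE normalization, total-count scaling, no filter or a mean of at least 10 counts, edgeR called 1 of the two-cell-like genes lower, *Gm4340*, which stood at 21.0 and 21.1 CPM and then at 17.5 and 18.4 CPM (log2 -0.23, adjusted p = 0.0536 in the fit described here).

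In the Nodal list 4 of 12 genes rose and 2 fell, and the rises were 2 without 18 h replicate 1 and 2 without 0 h replicate 2. The co-receptor gene *Tdgf1* and the repressor gene *Skil* (log2 -0.28, adjusted p = 1.86e-04) were lower, whereas the effector gene *Smad3* rose from 33.1 and 29.6 to 44.2 and 40.6 CPM (log2 0.44, adjusted p = 5.40e-05) and the inhibitor gene *Lefty1* from 33.3 and 30.5 to 41.6 and 44.0 CPM (log2 0.43, adjusted p = 7.69e-05). The related *Lefty2* rose by a log2 value of 0.22, and was lost without 18 h replicate 1 (adjusted p = 0.154) or 0 h replicate 2 (0.126). In the FGF list the ligand gene *Fgf4* fell and the receptor genes *Fgfr2* (log2 0.40, adjusted p = 1.04e-05) and *Fgfr1* (0.18) rose, of 9 tested, and *Fgfr1* was lost without 18 h replicate 1 (adjusted p = 0.106) or 0 h replicate 2 (0.100). *Fgfr2* stood at 35.6 and 36.3 CPM and then at 47.0 and 48.1 CPM. Thus 1 ligand gene was called lower, 2 receptor genes were called higher and 6 genes of the list were not called.

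For LIF signalling the receptor gene *Lifr* fell from 162 and 167 to 123 and 119 CPM (log2 -0.44, adjusted p = 6.52e-08), while the STAT3 targets *Junb* (log2 0.26) and *Pim1* (0.22) rose, of 10 genes tested. *Pim2*, known as a STAT3 target and not in the list, fell by 0.68 as described above. Neither rise was called without 18 h replicate 1 (adjusted p = 0.284 and 0.174), and *Junb* was also lost without 0 h replicate 2 (0.153). In the BMP list 2 of 10 rose (20.00% called, against 8.52% of all genes tested). The inhibitory *Smad6* stood at 14.5 and 12.3 CPM and then at 23.1 and 23.0 CPM (log2 0.79, SE 0.0827, adjusted p = 2.40e-07), and the ligand gene *Bmp4* rose by a log2 value of 0.21, which was lost without 18 h replicate 1 (adjusted p = 0.382), 18 h replicate 2 (0.0519) or 0 h replicate 2 (0.231). Of 16 Hippo pathway genes 6 rose and 0 fell, and the count was 3 without 18 h replicate 1 or without 0 h replicate 2. The YAP target *Ccn1* rose from 59.5 and 58.5 to 79.9 and 78.3 CPM (log2 0.42, adjusted p = 3.49e-06), and *Amot*, which binds YAP, from 31.8 and 32.8 to 43.4 and 42.5 CPM (log2 0.41, adjusted p = 3.06e-05). Its relatives *Amotl2* (log2 0.24) and *Amotl1* (0.21) also rose, of which *Amotl1* was lost without 18 h replicate 1 (adjusted p = 0.124) or 0 h replicate 2 (0.139). Members of the Hippo list that rose thus included a target, binding proteins of YAP and the TEAD factor gene *Tead4*.

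Of 12 Wnt targets 1 rose and 1 fell (16.7% called, against 8.52% of all genes tested). They were *Notum*, a secreted Wnt inhibitor (log2 0.36, adjusted p = 0.00196), and *Lef1*. Of 15 ERK feedback genes 2 rose and 1 fell (20.00% called, against 8.52% of all genes tested). The immediate early gene *Egr1* stood at 6.90 and 6.32 CPM and then at 4.83 and 3.87 CPM (log2 -0.61, adjusted p = 0.00555), and was lost without 18 h replicate 2 (0.153). The phosphatase gene *Dusp4* (log2 0.24) and the inhibitor gene *Spry4* (0.16) were the rises, and both were lost without 18 h replicate 1 (adjusted p = 0.124 and 0.148) or 0 h replicate 2 (0.0543 and 0.121), *Spry4* also without 18 h replicate 2 (0.0522). *Spry4* stood at 201 and 192 CPM at 0 h and *Dusp4* at 66.1 and 63.6 CPM. The single O4AID library at 0 h, scaled apart from the CreER libraries, gave 1.84 and 1.71 CPM for these genes. The labels give the same medium for both lines. The 2 lines were not compared by a test, and the cause of this difference was not tested.

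Of 9 DNA methylation genes tested 4 fell and 0 rose, with 5 not called and a median log2 change of -0.12. The demethylase gene *Tet2* stood at 177 and 172 CPM and then at 137 and 138 CPM (log2 -0.34, adjusted p = 3.37e-06), and the falls of *Dnmt3a*, *Dnmt3l* (log2 -0.19) and *Dnmt3b* (-0.18) were smaller. *Dnmt3a* was lost without 0 h replicate 2 (adjusted p = 0.0541), *Dnmt3l* without 18 h replicate 1 (0.0914) and *Dnmt3b* without 18 h replicate 2 (0.0649). Of 15 Polycomb genes, 5 fell, 1 rose and 9 were not called. *Eed*, a core subunit of PRC2, stood at 194 and 206 CPM and then at 153 and 151 CPM (log2 -0.39, adjusted p = 7.19e-07), and *Pcgf6*, of a variant PRC1, at 87.3 and 94.7 CPM and then at 72.9 and 74.1 CPM (log2 -0.31, adjusted p = 1.03e-04). *Kdm2b* (log2 -0.25) and *Rnf2* (-0.23), a CpG-binding subunit and the ubiquitin ligase of PRC1, also fell. The rise was that of *Pcgf2*, a subunit of canonical PRC1 (log2 0.28), which was lost without 18 h replicate 1 (adjusted p = 0.109), 18 h replicate 2 (0.0729) or 0 h replicate 2 (0.143).

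Of 18 p53 targets 7 rose and 0 fell, with a median log2 change of 0.12, and the count was 4 without 18 h replicate 2. *Mdm2*, the ubiquitin ligase for p53, stood at 169 and 162 CPM and then at 208 and 202 CPM (log2 0.31, adjusted p = 7.62e-06). The antiproliferative gene *Btg2* stood at 47.4 and 45.3 CPM and then at 57.1 and 61.5 CPM (log2 0.36, adjusted p = 6.91e-05), and *Trp53inp1* rose by 0.27 (adjusted p = 8.30e-05). The rises were under 1.5-fold throughout the list. The CDK inhibitor gene *Cdkn1a* (log2 0.32) was called but lost without 18 h replicate 2 (adjusted p = 0.170), 0 h replicate 1 (0.0558) or 0 h replicate 2 (0.0502). Of 17 cyclins and CDK inhibitors (11.8% called, against 8.52% of all genes tested) it was the sole rise, and *Cdk6* the sole fall (log2 -0.20), which was lost without 18 h replicate 1 (adjusted p = 0.0696), 18 h replicate 2 (0.273) or 0 h replicate 1 (0.165). In the MYC network 3 of 10 genes fell and 0 rose. *Mycn* stood at 181 and 176 CPM and then at 135 and 129.7 CPM (log2 -0.43, adjusted p = 1.43e-07), and *Myc* at 24.9 and 25.3 CPM and then at 20.03 and 18.8 CPM (log2 -0.37, adjusted p = 0.00246). *Myc* was lost without 18 h replicate 2 (0.0625), and the third, the antagonist gene *Mxi1* (log2 -0.23), on leaving out any 1 library (0.0780 to 0.277).

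Of 23 genes of cholesterol synthesis and SREBP2 targets, 6 rose and 0 fell, with a median log2 change of 0.13. The sterol oxidase gene *Msmo1* stood at 90.7 and 89.9 CPM and then at 106 and 105 CPM (log2 0.23, adjusted p = 0.00177). *Msmo1* was called on leaving out each library. The count was 2 without 18 h replicate 1, and 3 without 18 h replicate 2, without 0 h replicate 2, with total-count scaling, with DESeq2 or with the 4 libraries fitted alone. Of 19 glycolytic enzymes and transporters 5 rose and 2 fell, and the count was 4 without 18 h replicate 2. The hexokinase genes went opposite ways, *Hk1* from 36.9 and 37.0 to 50.4 and 46.0 CPM (log2 0.38, adjusted p = 3.21e-04) and *Hk2* from 315 and 343 to 296 and 282 CPM (log2 -0.19, adjusted p = 0.00658). *Hk2* was lost without 18 h replicate 2 (0.145) or 0 h replicate 2 (0.152). *Ldhb*, a lactate dehydrogenase subunit (log2 0.34), and the glucose transporter gene *Slc2a1* (0.27) also rose. Of 16 ATF4 stress genes, *Ddit4* was the sole call (6.25%, against 8.52% of all genes tested, log2 0.32), lost without 18 h replicate 2 (log2 0.27). Of 5 aryl hydrocarbon receptor targets *Nqo1* was the sole call (20.00%, log2 0.32, adjusted p = 2.85e-04 by edgeR).

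Of 20 imprinted genes 7 rose and 2 fell, and the count was 4 without 18 h replicate 1. *H19*, a maternally expressed noncoding RNA, stood at 196 and 175 CPM and then at 274 and 250.4 CPM (log2 0.50, adjusted p = 1.22e-07). Its neighbour *Igf2*, a paternally expressed growth factor gene, stood at 35.6 and 34.8 CPM and then at 47.7 and 45.3 CPM (log2 0.40, adjusted p = 2.69e-04), so both genes of this cluster rose. *Snrpn* fell from 161 and 191 to 125 and 121 CPM (log2 -0.51, adjusted p = 0.00174). The counts do not separate the parental alleles. Of 29 mitochondrially encoded genes tested, 6 rose and 0 fell, with a median log2 change of 0.48 and 26 members above 0. Against 12 h, 0 of them were called at 18 h in either direction (median log2 -0.048). Their share of reads was 9.95% and 10.62% at 24 h, below both 18 h libraries, and 14.4% and 17.29% at 36 h. The course was thus not a steady rise. The ribosomal RNA gene *mt-Rnr1* stood at 9759 and 10643 CPM and then at 12707 and 13533 CPM (log2 0.36, adjusted p = 2.35e-05), and the transfer RNA gene *mt-Tn* at 14.2 and 12.7 CPM and then at 19.5 and 24.2 CPM (log2 0.71, adjusted p = 7.62e-06). DESeq2 called 13 of them, and edgeR fitted to the 4 libraries alone called 12. Ribosomal RNA was depleted before sequencing, and the part of that depletion in these values was not tested. Of 87 cytosolic ribosomal protein genes tested, 0 rose and 1 fell, and without 0 h replicate 1 there were 14 falls and 1 rise. Their median log2 change was -0.040. Of 63 replication-dependent histone genes tested, 1 rose and 4 fell (7.94% called, near the 8.52% of all genes tested). Members below 0 numbered 58 and those above 0 numbered 5, with a median log2 change of -0.12. On leaving out 1 library that median ranged from -0.17 to -0.043. With no filter 1 rose and 14 fell. Both families hold near-identical copies between which reads may be split.

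**Figure D5:**
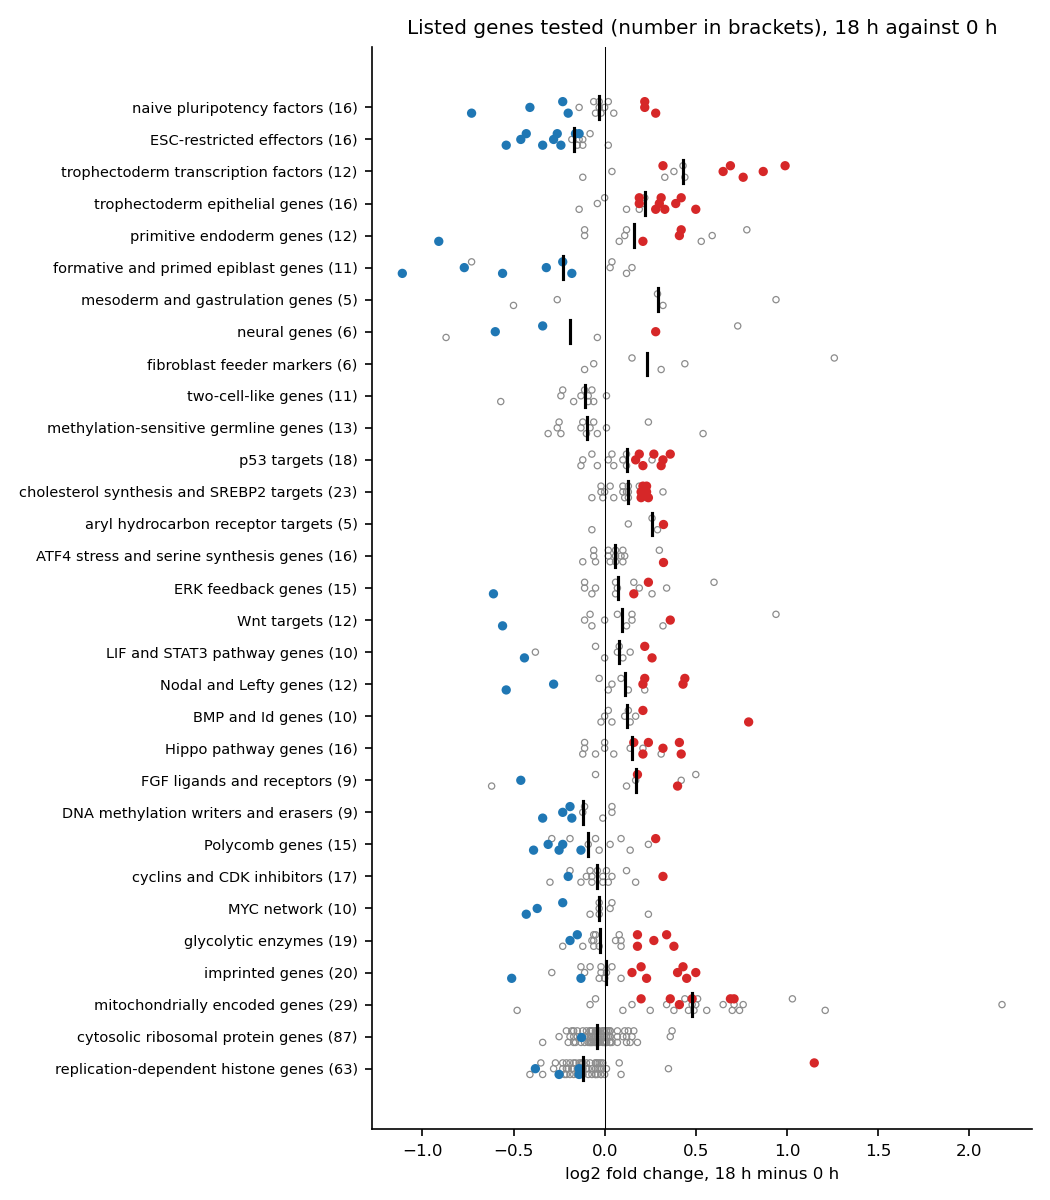
Log2 fold change (18 h minus 0 h) of each tested member of 31 gene lists, with filled red points called higher, filled blue points called lower, open points not called, black bars at list medians and the number tested in brackets. The trophectoderm lists have medians of 0.43 and 0.22 with no member called lower, and the ESC-restricted effectors a median of -0.17 with no member called higher.

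The step that led to 18 h was compared with 12 h, which shares the 18 h libraries with the main comparison. It called 294 of 18969 genes (1.55%), 197 of them higher (1.04%) and 97 lower (0.511%). *Tfap2c* (log2 0.44, adjusted p = 3.83e-05), *Hand1* (0.71, adjusted p = 4.08e-05), *Eomes* (0.62, adjusted p = 1.15e-04) and *Gcm1* (0.72, adjusted p = 2.01e-04) were higher than at 12 h, and *Tdgf1* (-0.32, adjusted p = 2.00e-04) was lower. These trophectoderm factors were thus higher at 18 h than at both earlier times. The count was 60 without 18 h replicate 1, 110 without 18 h replicate 2, 71 without 12 h replicate 1 and 48 without 12 h replicate 2.

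The later step from 24 to 36 h shares no library with 18 h or 0 h, so it offers the same genes in other samples of the line. It called 2785 of 18969 genes (14.7%), 1542 higher (8.13%) and 1243 lower (6.55%) at 36 h. Of the 897 genes called higher at 18 h, 358 (39.9%) rose and 56 (6.24%) fell from 24 to 36 h. Of the 719 called lower, 248 (34.5%) fell and 12 (1.67%) rose. With total-count scaling, which moved the median of all genes to -0.10 on the log2 scale, the step called 682 genes higher (3.60%) and 3205 lower (16.9%). The 897 then gave 228 rises (25.4%) and 129 falls (14.4%), and the 719 gave 440 falls (61.2%) and 4 rises (0.556%). Under both scalings more of the 897 rose than fell and more of the 719 fell than rose, while other members of each set were not called. *Hand1* rose further (log2 1.23, adjusted p = 1.20e-12), and *Cdx2*, not called at 18 h, rose by 1.42 (adjusted p = 3.76e-09). *Lefty1*, higher at 18 h, was lower at 36 h than at 24 h (log2 -1.24, adjusted p = 2.89e-12), and *Cchcr1* had levelled (log2 -0.01, SE 0.0494, adjusted p = 0.958).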

How the data were processed

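Total RNA was depleted of ribosomal RNA and sequenced from directional libraries. Per the labels, the authors trimmed reads with Trim Galore 0.1.4, aligned them with TopHat2 2.1.0 to GRCm38 and counted them per gene with featureCounts 1.5.1, whose strand setting is not given in the sources used here. The deposited count files hold whole-number read counts per gene, not normalised, with 48801 entries each. The 92 spike-in entries held 0 reads and were left out. Depth was 24.5 to 29.2 M reads per library compared, and precision rests on both depth and 2 replicates. Replicates differed by more than sampling noise (chi-square per degree of freedom 5.63 at 0 h and 3.08 at 18 h).

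All 10 CreER libraries were fitted together with edgeR 4.0.16 in R 4.3.3 (TMM factors, filterByExpr, robust quasi-likelihood), and 18 h was contrasted with 0 h, 36 h with 24 h, and 18 h with 12 h. P-values were adjusted over 18969 genes. The script was tested on simulated data. The study's own test, NOISeq on simulated replicates, was not run.

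Named genes were *Pou5f1*, genes within 100 kb of it, the 10 largest called rises and falls with a mean of at least 50 counts and the libraries of the groups apart, and up to 5 called members of each list. Any measured member of the naive factor and trophectoderm factor lists could be named. The 31 lists and the comparison were chosen with earlier results of these data known. 1 listed symbol had no match. Gene names and positions came from GENCODE for GRCm38. No batch is given in the labels.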

Additional observations from a re-analysis of the deposited data

How the results depend on the processing

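Of the alternatives tried, DESeq2 1.42.0 moved the counts most among those that kept all libraries, to 989 calls at 18 h against 0 h (518 higher, 104 of at least 1.5-fold), 151 at 18 h against 12 h and 1656 at 36 h against 24 h. Fitting the 4 libraries alone gave 774 calls at 18 h against 12 h and 1161 at 18 h against 0 h. On leaving out 1 library in turn, calls at 18 h against 0 h ranged from 582 to 2006, higher calls from 352 to 1068, calls of at least 1.5-fold from 116 to 277, calls at 18 h against 12 h from 48 to 110 and calls at 36 h against 24 h from 1491 to 2194. Of 1616 calls, 389 (252 higher) were called under each of the 11 alternatives that gave an adjusted p, and none changed sign in any. DESeq2 gave no adjusted p to 6620 low-count genes, among them 88 of the calls, such as *Enpp2*, *Tgm3*, *Cftr*, *Rasgrp1*, *Platr8* and *Cubn*, and did not call 562 others. Of the genes named, it did not call *Gbx2* (0.0506), *Pcgf2* (0.0753), *Dppa3* (0.0854), *Tead4* (0.114), *Olig2* (0.133), *Bmp4* (0.150), *Mxi1* (0.147), *Cdk6* (0.0680) and *Krt7* (adjusted p = 0.175), and RLE normalization and total-count scaling also lost *Krt7* and *Bmp4*. *Krt7* was also lost with no filter and with the replicate block (adjusted p = 0.0502), and *Krt7*, *Bmp4*, *Tead4*, *Cdk6* and *Mxi1* with the 4 libraries fitted alone (adjusted p = 0.0545 to 0.103). The causes were not tested. The share of calls that were higher was 55.5%, against 51.6% with RLE normalization and 48.7% with total-count scaling. The log2 change of *Pou5f1* kept its direction and call under each.

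With the replicate number as a block, 1677 genes were called at 18 h against 0 h (935 higher, 208 of at least 1.5-fold). Deviations of same-numbered samples from group means correlated at 0.05 between 0 h and 18 h. The share of reads from mitochondrially encoded genes was nevertheless higher in replicate 2 than in replicate 1 at each CreER time. With 2 replicates a group, these values cannot tell whether such samples shared a culture or a preparation.

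*Nanog* changed sign around 0, at -0.01 with RLE normalization, -0.02 with total-count scaling, -0.0043 with no filter, -0.0027 with a mean of at least 10 counts, -0.01 with DESeq2, -2.5e-04 with the 4 libraries alone and -0.01 to 0.01 on leaving out 1 library. *Klf4* ranged from -0.0039 to 0.10 on leaving out 1 library. With 2 replicates a group, a gene that was not called may still differ.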
